A study of Oryza sativa with 24 samples.

Results

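The step into meiosis was followed in young rice panicles as the change from stage 5, when pollen mother cells form, to stage 6, when these cells undergo meiosis. All libraries came from the indica cultivar IR64, and 2 genotypes were pooled at each stage: wild type, and a triple mutant in which the tps2, tps3 and tps6 genes had been edited. The comparison was defined by the stage labels alone and used 11 of the 24 columns of the series, of which 21 were distinct. Stage 5 had 6 libraries, 3 per genotype. Stage 6 had 5 libraries, of which 2 were labelled mutant and 2 wild type. The remaining stage 6 library, replicate 3, stood in identical form under both genotypes, so its genotype is unresolved and it was counted as 1 library. Plants grew in chambers under a common regime, and the sources used here give neither the edited alleles nor the number of plants behind a library. The title of the series places the study in the context of spikelet fertility.

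Male meiosis in rice takes place inside the anther locules, where pollen mother cells leave the mitotic cycle, condense and pair their chromosomes and recombine. The surrounding tapetum, the innermost anther wall layer, feeds them and later supplies material for the pollen wall. Known rice regulators include MEL1, an argonaute protein of germ cells, PAIR2, a protein of the chromosome axes, ZEP1, a component of the synaptonemal complex, and UDT1 and TDR, transcription factors of the tapetum. The edited genes encode class II trehalose phosphate synthases, relatives of the enzyme that makes the sugar signal trehalose 6-phosphate. Meiocytes are a small part of a panicle, so these bulk libraries also hold RNA of the anther wall, glumes, lodicules, pistils and branches. Fewer cells of a type and less RNA per cell cannot be told apart in them. The count table identifies genes by IR64 identifiers that were paired with no gene name, so none of the regulators above, nor the edited genes, could be given a value. For the same reason the stage labels were not checked against marker genes, and no sequence is shown.

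Total counts per library ran from 11398861 to 12011796 at stage 5 and from 11764929 to 15860931 at stage 6, so the ranges overlapped but most stage 6 libraries were deeper. The 2 stages separated along the first principal component of log2(CPM + 1), where CPM is a count scaled to a common library size, with library sizes corrected by TMM factors. That component took 53.9% of the variance. The stage 5 libraries scored from -52.4 to -16.0 and the stage 6 libraries from 30.2 to 68.9. At stage 5 the libraries nearest to stage 6 were wild-type replicate 2, at -16.0, and wild-type replicate 3, at -23.9. At stage 6 the libraries nearest to stage 5 were the unresolved replicate 3, at 30.2, and wild-type replicate 1, at 34.1. The farthest was wild-type replicate 2, at 68.9. The second component took 13.6% and held the stage 6 wild-type replicates apart, at 35.0 and -41.3. Correlations across genes were 0.962 to 0.989 within stage 5, 0.943 to 0.984 within stage 6 and 0.887 to 0.956 between the stages. Libraries of stage 5 varied less than those of stage 6, with common biological coefficients of variation of 21.3% and 26.1%. Each was taken over both genotypes pooled, so it includes any difference between them, and at stage 6 also the unresolved library.

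**Figure D1:**
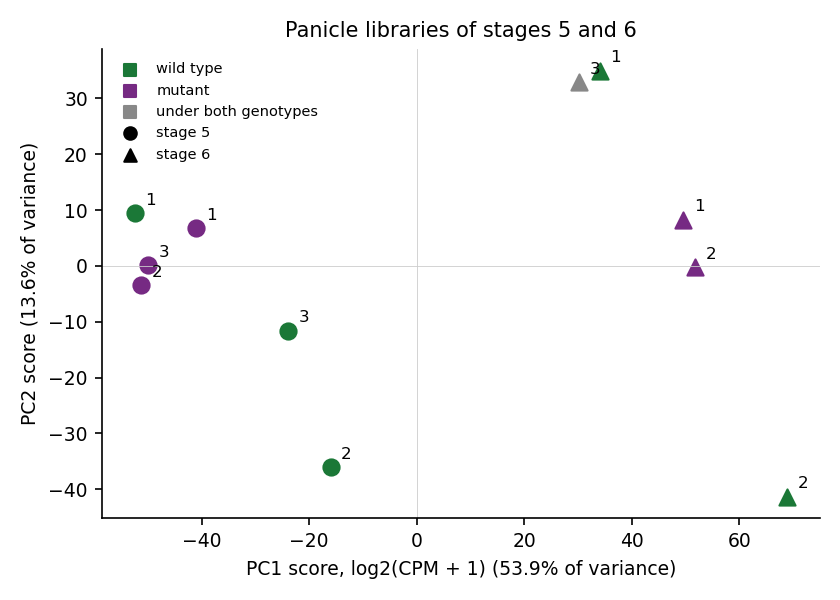
Scores of the 11 libraries on the first (x) and second (y) principal components of log2(CPM + 1), with the share of variance on each axis. Circles are stage 5 and triangles stage 6, colours give the genotype label and digits the replicate number. All stage 6 libraries lie above 30 on the first axis and all stage 5 libraries at -16.0 or lower.

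More genes reached 10 counts in stage 6 panicles than in stage 5 panicles. With every library thinned at random to the smallest total, 11398861 counts, a mean of 19936 ± 152 genes (SD, n = 5) had at least 10 counts at stage 6, against 19380 ± 150 genes (SD, n = 6) at stage 5. The lowest stage 6 library, with 19749 genes, stood above the highest stage 5 library, with 19548, and the difference of the means was 556 genes (exact permutation test, two-sided p = 0.00433, adjusted p = 0.00866 over 2 measures). Without the unresolved library the difference was 603 genes. By genes with any count, before thinning, the stages overlapped. The unresolved library had 23204 such genes, fewer than wild-type stage 5 replicate 2 with 23565, while every other stage 6 library was above all of stage 5. The p of the full comparison is the smallest that the 462 arrangements of the libraries allow. The 100 most counted genes of each library also took a slightly larger share of it at stage 6, 12.8% ± 0.565 (SD, n = 5) against 11.8% ± 0.344 (SD, n = 6), with a difference of 1.02 points (exact permutation test, two-sided p = 0.00866, adjusted p = 0.00866). Here the stages overlapped, with 12.1% to 13.4% at stage 6 and 11.3% to 12.2% at stage 5. More genes with at least 10 counts and a heavier top of the distribution were thus measured together.

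Rises outnumbered falls from stage 5 to stage 6 and were larger. Of 19983 genes tested, 5984 changed between the stages (29.9%; edgeR's quasi-likelihood test with Benjamini-Hochberg adjusted p under 0.05). Higher at stage 6 were 3364 genes (16.8%) and lower were 2620 genes (13.1%). The genes that rose did so by a median of 0.92 on the log2 scale, 1.89-fold, with quartiles of 0.53 and 1.63. The genes that fell had a median log2 change of -0.54, 1.46-fold, with quartiles of -0.40 and -0.82. The median over all tested genes was -0.007. Without the unresolved library 5634 genes were called, 57.7% of them higher, against 56.2% with it. The excess of rises in number depended on the scaling, since library totals without TMM factors gave 3021 rises and 3288 falls. In counts by size, 1552 genes rose and 391 fell at least 2-fold, 564 rose and 24 fell at least 4-fold, and 276 rose and 5 fell at least 8-fold. Past 16-fold there were 130 genes that rose and 1 that fell. The 564 genes had a median over stage 5 libraries of 0.68 in log2(CPM + 1), near the floor, against 3.18 at stage 6. Genes so low at stage 5 could pass the low-count filter through stage 6 alone, so these counts by size are a description. Without the filter 1005 genes rose and 89 fell at least 4-fold. The count of falls past 4-fold was small and moved with single libraries: it was 72 without wild-type stage 6 replicate 1, 43 without the unresolved library and 11 without wild-type stage 5 replicate 1. In each of these fits at least 550 genes rose past 4-fold.

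**Figure D2:**
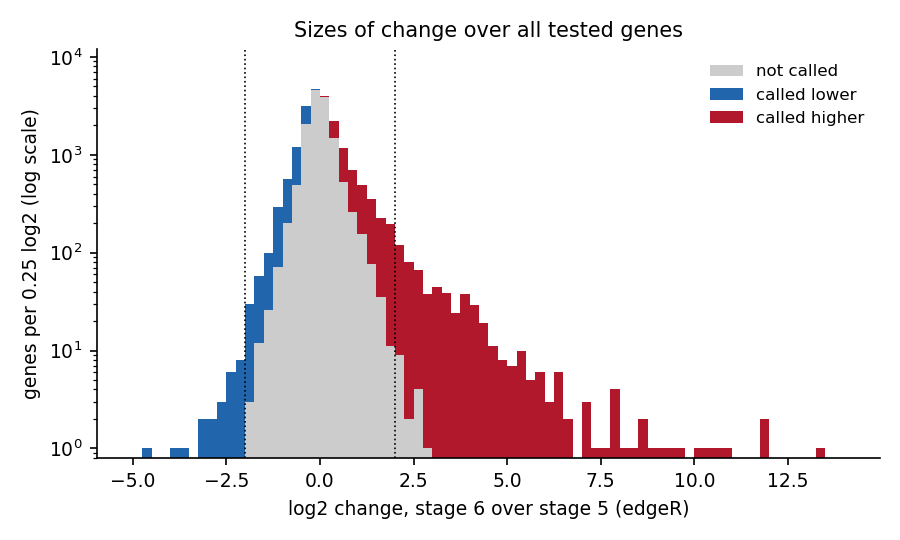
Number of genes (y, log scale) by fitted log2 change from stage 5 to stage 6 (x, bins of 0.25) for the 19983 genes tested; grey genes were not called, blue were called lower and red higher. Dotted lines mark 4-fold, past which 564 called genes lie on the right and 24 on the left.

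Many of these changes separated every library of one stage from every library of the other. The lowest stage 6 value stood above the highest stage 5 value in 2065 tested genes (10.3%), and the highest stage 6 value stood below the lowest stage 5 value in 1412 (7.07%). Of the genes called higher, 2026 (60.2%) were separated in this way, and of those called lower, 1351 (51.6%). The rest passed the test with overlapping libraries.

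Steep changes in both directions were mostly in genes with few counts. Most rises and falls of any size were in genes with more, where most of the tested genes also lay. A gene's mean CPM over the 11 libraries served as the measure of how many counts stood behind it, and it also grows with gene length. Among the 6592 genes with a mean under 10 CPM, 33.0% of those tested, 413 rose and 23 fell at least 4-fold. Among the 13391 genes at 10 CPM or more, 67.0% of those tested, 151 rose and 1 fell at least 4-fold. The mean covers both stages, so a gene can reach 10 CPM through 1 stage alone. The split therefore cannot show whether the difference in size holds in genes well counted at both stages. At 1 to 10 CPM, 18.8% of 6111 genes were called higher and 5.84% lower, with median log2 changes of 1.61 and -1.02. From 10 to 100 CPM the shares were nearly even, 15.0% of 11043 genes higher and 16.2% lower, with medians of 0.67 and -0.53. Above 100 CPM, 21.3% of 2348 genes were higher and 19.7% lower, with medians of 0.50 and -0.39.

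The genes that rose gained share of the whole library and those that fell lost it. Counts of the 3364 genes called higher made up 15.1% to 17.2% of a stage 5 library (median 15.8%) and 24.0% to 26.8% of a stage 6 library (median 25.4%). Counts of the 2620 genes called lower made up 19.7% to 22% at stage 5 (median 21%) and 13.0% to 15.1% at stage 6 (median 14.3%). The 564 genes that rose at least 4-fold held 0.163% to 0.338% of a library at stage 5 and 1.31% to 1.95% at stage 6. Most of the gained share therefore lay in genes with smaller folds. These groups were chosen on the same libraries, so the shares are a description. Wild-type replicate 2 had the highest share of rising genes among the stage 6 libraries, 26.8%, and among the stage 5 libraries wild-type replicates 2 and 3 had the highest, 17.2% and 16.8%.

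A small set of genes went from no detected count to expression in every stage 6 library. At stage 5, 9728 identifiers had no count in any of the 6 libraries, and 79 of them had a count in all 5 stage 6 libraries. Most stayed low, with a median of 0.674 CPM at stage 6. Of the 79 genes, 28 reached a mean of 1 CPM and 7 reached 10 CPM. Only 12 of them had enough counts to be tested and all 12 were called, but these passed the filter through stage 6 alone and so had to differ. In the opposite direction, 9382 identifiers had no count at stage 6, and 6 of these had a count in all 6 stage 5 libraries, none above a mean of 0.839 CPM. None of these 6 passed the filter. Unequal depth and unequal numbers of libraries enter both counts, and 3 counts over the 6 stage 5 libraries together correspond to 0.0422 CPM.

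The median level of the 79 genes was higher at the later stages, a description with no test. It was 3.43 CPM over the 4 distinct stage 7 libraries, when pollen fills, and 1.88 CPM over the 6 stage 8 libraries, when pollen matures. At least 10 CPM was reached by 22 of them at stage 7 and by 18 at stage 8, against 7 at stage 6. By stage 8, 1 of the 79 had no count again.

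Named below are 4 genes chosen by size of change, among called genes whose stages did not overlap and whose higher stage averaged at least 5 CPM. The call and the missing overlap given for each were thus conditions of the choice. The largest fitted rise belonged to OsIR64_07g0026440. It had no count in any stage 5 library. At stage 6 it stood at 100.2 CPM and 163 CPM in mutant replicates 1 and 2, at 132 CPM and 91.9 CPM in wild-type replicates 1 and 2, and at 14 CPM in the unresolved library. All 5 libraries thus had the transcript, and the unresolved library had by far the least of it. The stage 6 mean of 100.1 ± 55.7 CPM (SD, n = 5) was at least 2373-fold higher than a floor of 3 counts over the stage 5 group, and the lowest library was at least 333-fold higher. The gene passed the low-count filter through stage 6 alone, so its call is not given as support. The level lay between 947 CPM and 1794 CPM in the stage 7 libraries and between 381 CPM and 971 CPM, with a median of 827 CPM, at stage 8. Every stage 7 and stage 8 library was above every stage 6 library.

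The largest gain in mean CPM was that of OsIR64_09g0014580, which was already among the most counted genes at stage 5. Its stage 5 values ran from 2304 CPM over a median of 3153 CPM to 4761 CPM. At stage 6 it stood at 5189.7 CPM and 4960.5 CPM in mutant replicates 1 and 2, at 8151 CPM and 7693 CPM in wild-type replicates 1 and 2, and at 6732 CPM in the unresolved library. Every stage 6 library was above every stage 5 library, and the log2 change was 0.95 (SE 0.193, edgeR adjusted p = 0.0022). Within both stages the wild-type libraries lay above the mutant ones. At stage 5 the mutant had 2304, 2678 and 2847 CPM and wild type 3459, 4295 and 4761 CPM, a difference that was not tested here. The change from stage 5 to stage 6 was nonetheless of similar size in each genotype, at 0.92 (SE 0.133) in wild type and 0.95 (SE 0.133) in the mutant on the log2 scale. Later values were 7412 CPM to 9208 CPM at stage 7 and 2065 CPM to 6284 CPM at stage 8.

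Among the genes that fell, OsIR64_04g0024450 had the largest fitted change. Its stage 5 libraries ran from 6.58 CPM over a median of 7.51 CPM to 10.8 CPM. At stage 6 it had 0 CPM and 0.226 CPM in mutant replicates 1 and 2, 0.803 CPM and 0.162 CPM in wild-type replicates 1 and 2, and 0.43 CPM in the unresolved library. The 6 stage 5 libraries together had 569 counts of it and the 5 stage 6 libraries 20. The fitted log2 change was -4.64 (SE 0.479), and stages 5 and 6 did not overlap. Nearly all of its counts were at stage 5, through which it passed the low-count filter, so its call is not given as support either. At the later stages it was as low or lower: stage 7 libraries held at most 0.759 CPM and all 6 stage 8 libraries had no count.

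The largest loss in mean CPM was in OsIR64_03g0012620. Its stage 5 values ran from 446 CPM over a median of 488 CPM to 591 CPM. At stage 6 it stood at 175 CPM and 162 CPM in mutant replicates 1 and 2, at 316 CPM and 219 CPM in wild-type replicates 1 and 2, and at 211 CPM in the unresolved library. The groups did not overlap, and the log2 change was -1.20 (SE 0.148, edgeR adjusted p = 2.4e-05). Later values were lower still, between 34.5 CPM and 90.0 CPM at stage 7 and between 13.5 CPM and 31.9 CPM at stage 8. The files do not say what these 4 genes encode.

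**Figure D3:**
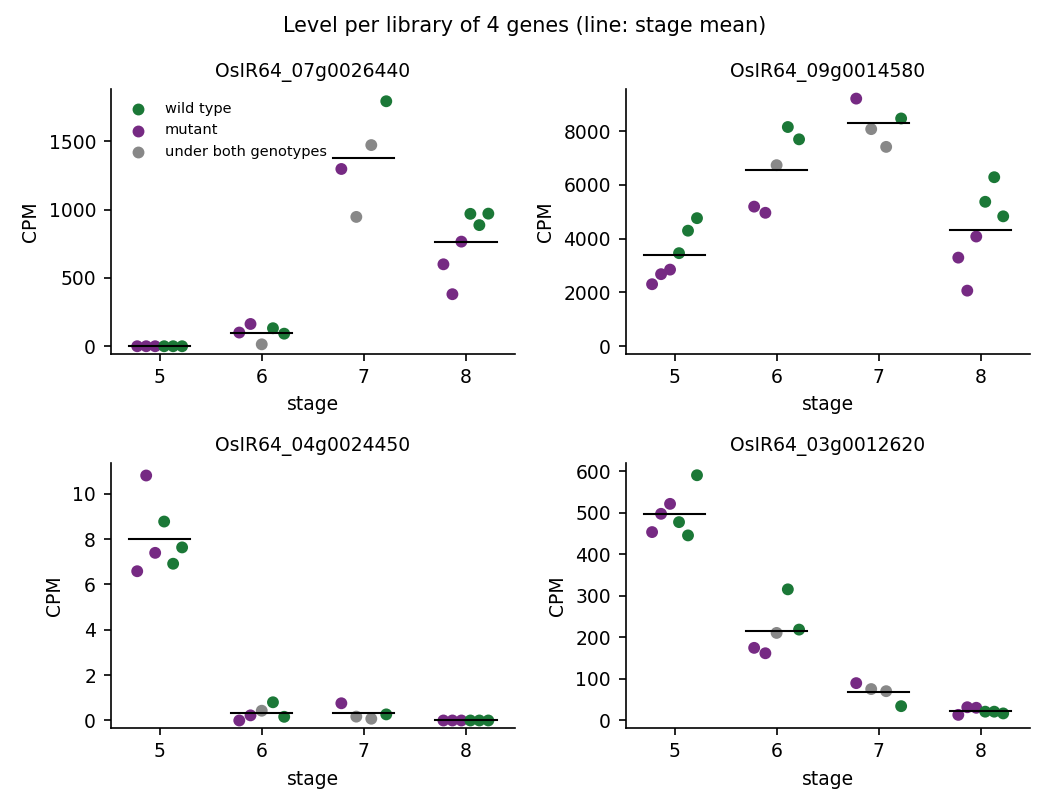
CPM (y, linear, each panel on its own scale) of 4 genes in every distinct library by stage (x); points are libraries coloured by genotype label, grey where the library stands under both genotypes, and black lines are stage means. The genes were chosen so that stage 5 and stage 6 libraries do not overlap in any panel. OsIR64_07g0026440 is highest at stage 7, at 947 CPM to 1794 CPM.

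Over the whole series, the genes that rose had their highest level most often at stage 7. The stages were compared by their mean CPM over distinct libraries, with TMM factors of all 21 columns. Of the 4 stage 7 libraries, 2 also stood under both genotypes. Of the 3364 genes called higher, 736 (21.9%) had their highest mean at stage 6, 1803 (53.6%) at stage 7 and 825 (24.5%) at stage 8. Over all 19983 tested genes the highest mean was at stage 5 in 34.3%, at stage 6 in 14.6%, at stage 7 in 22.2% and at stage 8 in 29.0%. No gene that rose had its highest mean at stage 5. Of the 13135 tested genes with a later highest mean, 22.1% were highest at stage 6, 33.8% at stage 7 and 44.1% at stage 8. These are not a matched background, since they include genes lower at stage 6 than at stage 5, which cannot be highest at stage 6. Among them are 226 genes called lower that were highest at stage 8. The choice of the genes that rose thus bears on each share, and the differences were not tested. Among the 564 genes that rose at least 4-fold, the highest mean was at stage 6 in 108, at stage 7 in 330 and at stage 8 in 126. Of the 2620 genes that fell, 2389 (91.2%) had their highest mean at stage 5 and 226 (8.63%) at stage 8. They were chosen for standing higher at stage 5 than at stage 6, and none was highest at stage 6. The choice itself thus favoured stage 5, and the difference from the 34.3% of all tested genes was not tested.

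The medians per library give the same course in levels, with log2(CPM + 1) as the scale. The 3364 genes that rose had library medians of 3.68 to 3.99 at stage 5, 4.74 to 4.97 at stage 6, 5.4 to 5.56 at stage 7 and 4.74 to 5.26 at stage 8. For the 564 steepest, the median over libraries went from 0.68 at stage 5 to 3.18 at stage 6, 4.38 at stage 7 and 3.74 at stage 8. The mutant stage 8 replicate 2 library was the lowest of its stage for these genes, at 2.35, and the highest was at 3.98. The 2620 genes that fell went from 5.45 to 5.64 at stage 5 to 4.89 to 5.11 at stage 6, then 4.31 to 4.54 at stage 7 and 4.47 to 4.8 at stage 8. Over all tested genes the library medians stayed between 4.42 and 4.52 at every stage. The later stages took no part in choosing the genes, but stages 5 and 6 did, so this course is a description.

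**Figure D4:**
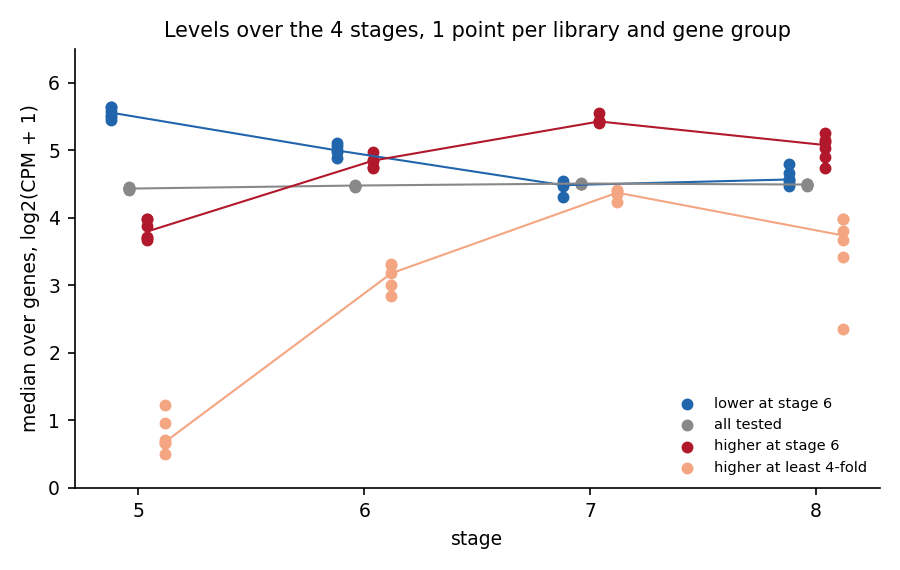
Median log2(CPM + 1) over the genes of a group (y) by stage (x), with 1 point per distinct library and lines through the stage medians. Genes called higher at stage 6 climb from about 3.8 at stage 5 to 5.43 at stage 7, genes called lower decline from 5.56 to 4.48, and all tested genes stay level.

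Both genotypes were asked separately, with 10 libraries of resolved genotype in 1 fit of 4 groups and 21328 genes tested. In wild type 1434 genes rose (6.72%) and 686 fell (3.22%), and in the mutant 2121 rose (9.94%) and 1391 fell (6.52%), at an edgeR adjusted p under 0.05. The genotypes share no library, so the genes called in one could be set beside their changes in the other. Both came from 1 fit with a common filter, scaling and gene-wise spread, so the calls in the 2 genotypes are not independent. The 1434 genes that rose in wild type had a median log2 change of 1.29 there and 1.38 in the mutant, where 1431 of them had a positive change. The 686 genes that fell in wild type had a median of -0.83 there and -0.82 in the mutant, with 680 negative. The 2121 genes that rose in the mutant had a median of 1.54 there and 1.12 in wild type, with 2109 positive. The 1391 that fell in the mutant had -0.79 there and -0.54 in wild type, with 1370 negative. Over all 21328 genes 77.7% had the same sign in both, and the log2 changes correlated at r = 0.78 across genes, which are not independent replicates.

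Of the genes called in one genotype, none was called in the opposite direction in the other. Called as rising in both were 1200 genes, 83.7% of the wild-type and 56.6% of the mutant list. Called as falling in both were 492 genes, 71.7% of the wild-type and 35.4% of the mutant list. The longer mutant lists do not by themselves measure the size of the step. The difference between the genotypes was tested directly, but with few libraries, so a lack of calls there does not show equal steps. For this interaction of genotype and stage 0 of 21328 genes (0.0%) passed in edgeR. An unadjusted p below 0.05 was found for 626 genes (2.94%), and DESeq2 also called 0. That unadjusted count was unstable: it ran from 366 (1.72%) to 2435 (11%) when single libraries were left out, with 2435 without wild-type stage 6 replicate 2 and 1558 without wild-type stage 6 replicate 1. The median absolute difference between the genotypes' log2 changes was 0.25. With 2 stage 6 libraries per genotype, the count was 2 without wild-type stage 6 replicate 1 and 1 without wild-type stage 5 replicate 1. Among the genes named above, the falls were fitted as larger in the mutant. OsIR64_04g0024450 had log2 changes of -6.18 (SE 0.773) in the mutant and -3.99 (SE 0.636) in wild type, and OsIR64_03g0012620 had -1.55 (SE 0.168) and -0.92 (SE 0.164). For neither did the difference pass the test (edgeR adjusted p = 1).

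**Figure D5:**
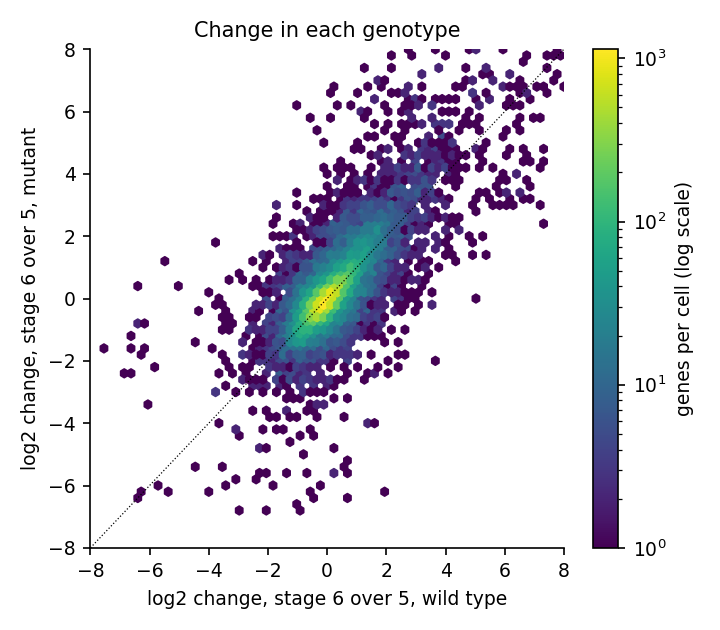
Fitted log2 change from stage 5 to stage 6 in wild type (x) and in the mutant (y) for 21328 genes, shown as genes per hexagonal cell on a log colour scale; the dotted line marks equal change, and 46 genes lie outside the axes. The cloud follows the line (r = 0.78 across genes) and no gene differed between the genotypes past the threshold.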

How the data were processed

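RNA from young panicles was sequenced as read pairs. Per the series design text, the authors trimmed the reads, mapped them to the IR64 genome with STAR and counted genes with HTSeq-count on a high-confidence annotation. That text speaks of TPM, but the deposited values analysed here are whole-number counts. The submitters' processing notes list Trimmomatic 0.39 and kallisto. The sources used here do not give the annotation release, the counter's version, the strand setting or the treatment of reads shared by near-identical genes, so paralogs and overlapping or antisense genes are uncertain. Nothing says whether replicates came from separate plants beyond the design text's word that they are biological.

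Of 36099 identifiers, 0 matched the 39387 genes of the RefSeq table (assembly ASM3414082v1), so 3 lists of 50 gene symbols (meiosis, tapetum and anther wall, trehalose phosphate synthases) matched 0 genes and gave no value. Within stages 5 and 6, 1 pair of columns was identical and the other pairs differed in at least 23573 identifiers. Counts were tested in R 4.3.3 by the quasi-likelihood functions of edgeR 4.0.16 (glmQLFit with robust estimation, then glmQLFTest; TMM; filterByExpr on stage; stage as the single term; 9 residual degrees of freedom), on the 11 libraries, with p-values adjusted over all genes tested. Genotypes were compared in a fit of 4 groups with 6 residual degrees of freedom. Standard errors were derived from the log2 change and its F statistic. Alternatives used DESeq2 1.42.0 and further settings. Library measures were tested with scipy 1.17.1. Named genes, at most 2 each way, had the largest fitted change or the largest CPM difference among called genes without overlap and with at least 5 CPM in the higher stage. The comparison, lists and rules were chosen with earlier results of these data known. Totals of 11398861 to 15860931 counts per library set the precision.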

Additional observations from a re-analysis of the deposited data

How the results depend on the processing

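Under 22 other settings of the fit none of the 5984 called genes that were tested again changed direction. These genes were called on largely the same libraries, so a change of direction was unlikely from the start. OsIR64_09g0014580 and OsIR64_03g0012620 stayed past the threshold in all 21 settings that gave them a p. Leaving out each library gave 4868 to 6461 calls, of which 4826 to 5552 were shared with the 5984. The count of genes at least 4-fold lower ran from 11 to 72 in these fits, and the interaction count from 0 to 2. The difference in genes with at least 10 counts was 518 to 603 and that in the share of the 100 most counted genes 0.87 to 1.18 points. The same count of genes at least 4-fold lower was 42 with a genotype term, 43 without the unresolved library, 38 in 4 pairs of libraries blocked by number within genotype and 89 without the low-count filter. Without that filter 1005 genes rose at least 4-fold. The fit of 21 distinct columns, which takes its spread from all stages, called 3181 genes higher, 965 of them at least 4-fold, and 1323 lower, so 70.6% of calls were rises against 56.2%. The 8 libraries of those pairs gave 6410 calls with 2704 falls under that block, and 4350 calls with 1719 falls without it. Tested against a minimum fold of 2, 606 genes passed, 585 higher and 21 lower, 10 of these at least 4-fold lower. Scaling by library totals, added after the data were seen, gave 3021 rises and 3288 falls, so the excess of rises turned; the median change of all genes moved from -0.007 to -0.061. The causes were not tested. With the replicate number as a replicate block 5899 genes were called. Same-numbered libraries of a genotype correlated at 0.051 to 0.4 in their deviations from the group mean, all positive. With 2 resolved stage 6 libraries per genotype the deviations mirror each other, so this check cannot decide whether the numbers are pairs. The main fit did not pair them, and the block within genotype above gives the counts under the other choice.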

Other observations

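A gene listed next to one that rose steeply had more often risen steeply itself than genes over all pairs, a description with no test. In the order of the count table, 12839 pairs of consecutive identifiers had both members tested. Where the first of a pair had risen at least 4-fold, the second had done so in 12.6% of 334 pairs, against 2.62% over all pairs. For all genes that rose the share was 21.1% of 2150 pairs against 16.6%, and for genes that fell 14.3% of 1690 pairs against 13.3%. The longest run of consecutive identifiers was 6 among the genes that rose and 5 among those that fell. No genome was used here, so it was not tested whether such neighbours overlap, are near-identical copies that share reads, or are separate genes.

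The number before the g in an identifier, which the files do not define, set the genes in 12 numbered groups. The share called higher lay between 15.3% and 17.8% in all 12 groups, and the share called lower between 10.9% and 15.7%. Rises of at least 4-fold made up 2.14% to 4.01% of the tested genes of a group.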
